A study of Mus musculus with 15 samples.

Results

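Regulatory T cells (Tregs), the Foxp3-expressing CD4 T cells that restrain immune responses, were compared between the peritoneal cavity and the thymus of control mice. The comparison takes 5 of the 15 libraries of the series, 2 from peritoneal and 3 from thymus Tregs, chosen by their labels alone, and all genes in the table. The controls, labelled ctr and in the sample titles wt, were adult littermates of the line named RelB-dDC on the C57BL/6 background. Both these mice and the RelB-dDC mice had been crossed to a Foxp3 reporter, by which the cells were sorted. The other libraries used for reference came from Tregs of the peritoneal cavity (2) and thymus (2) of RelB-dDC mice, called dDC here, and from spleen Tregs of dDC mice (3) and controls (3). The labels do not spell out dDC, and they do not say whether libraries of a group came from separate animals, so that p-values measure the spread between these samples, which may be technical. The sample titles number the libraries over the whole series but give no replicate number within a group. Libraries of a group are numbered here only to name them.

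Tregs differentiate in the thymus, where strong signals through the T cell receptor and interleukin 2 induce Foxp3, and then seed lymphoid organs and tissues. Some activated Tregs return from the periphery to the thymus, so that thymus Tregs of an adult mouse are a mixture of newly formed and recirculating cells. The peritoneal cavity holds free lymphocytes and macrophages, with B1 cells, a self-renewing kind of B cell, among the most common, and T cells enter and leave it with the help of integrins and chemoattractant receptors.

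Messenger RNA was sequenced in bulk, so that fewer cells of a type and less RNA per cell cannot be told apart. The total count per library was 20484403 and 15714286 in the peritoneal controls, against 18108790, 17502876 and 17382095 in the thymus controls, and 18423 genes had enough counts to be tested. The spread between libraries of a group was wide for low genes: the median biological coefficient of variation was 0.18 above 100 CPM (counts per 1000000 reads of a library) and 1.29 below 5 CPM. Foxp3 (X chromosome) had 254 and 320 CPM in peritoneal libraries, against 222, 275 and 327 CPM in thymus libraries, and the groups overlapped (0.07 ± 0.18, adjusted p = 0.936 in edgeR's quasi-likelihood test). Scaled by length this was 72 RPKM in peritoneal Tregs and 68.8 RPKM in thymus Tregs (CPM per kilobase of exon, group means). Cd3e, a subunit of the T cell receptor complex chosen after its values were seen, had 1314 and 1285 CPM in peritoneal libraries, against 1660, 1555 and 1582 CPM in thymus libraries. It was lower without overlap but did not pass (-0.30 ± 0.09, adjusted p = 0.126 in the same test). Cd3g, Cd3d and Cd2, chosen likewise, were also lower without overlap and did not pass. The T cell genes Trac (-0.40 ± 0.09, adjusted p = 0.0383) and Lck (-0.76 ± 0.15, adjusted p = 0.0205), chosen likewise, passed as lower. Trac lost its call whichever of the 5 libraries was left out (0.119, 0.086 and 0.103 without thymus library 1, 2 or 3). Lck lost its call without peritoneal library 2, thymus library 1 (0.0682) or thymus library 3 (0.0724). The coreceptor gene Cd4 had 834 and 448 CPM in peritoneal libraries, against 508, 346 and 694 CPM in thymus libraries. Foxp3, Cd3e and Cd4 were thus well above 0 in all 5 libraries. Relb, named in the line, had 17.5 and 10.5 CPM in peritoneal libraries, against 20.6, 26.4 and 37 CPM in thymus libraries. The sorted cells are not said to be the target of the line, so that its level does not check the genotype labels.

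Markers of other cells were not spread evenly over the 5 libraries. The summed level of 15 B cell markers was 4791 and 17530 CPM in the peritoneal libraries, against 291.5, 339.2 and 196.0 CPM in the thymus libraries, and none of the 15 was at 0 in a peritoneal library while 4, 3 and 1 were at 0 in the thymus libraries. For 18 macrophage and monocyte markers the sums were 59.55 and 1723 CPM in the peritoneal libraries, against 18.59, 38.89 and 11.14 CPM in the thymus libraries. Peritoneal library 2 thus carried 3.66 times the B cell and 28.9 times the macrophage marker level of peritoneal library 1. Immunoglobulin genes summed to 3793 and 6873 CPM in peritoneal Tregs, against 1414, 1115 and 1412 CPM in thymus Tregs. Plasma cell markers (8) summed to 160.3 and 246.1 CPM in peritoneal Tregs, against 68.62, 46.02 and 60.17 CPM in thymus Tregs. Neutrophil and eosinophil markers (12) summed to 29.38 and 50.86 CPM in peritoneal Tregs, against 1.422, 11.66 and 16.59 CPM in thymus Tregs, with 10 and 8 of the 12 at 0 in the peritoneal libraries. Gamma delta T cell markers (9) summed to 58.47 and 105.8 CPM in peritoneal Tregs, against 25.26, 36.27 and 30.77 CPM in thymus Tregs. The other 7 lists of markers overlapped between the groups or were higher in the thymus libraries, with dendritic cell markers at 149.2 and 351.5 CPM in peritoneal Tregs, against 243.1, 230.4 and 178.8 CPM in thymus Tregs. The part of these cells in the results below was not tested.

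**Figure D1:**
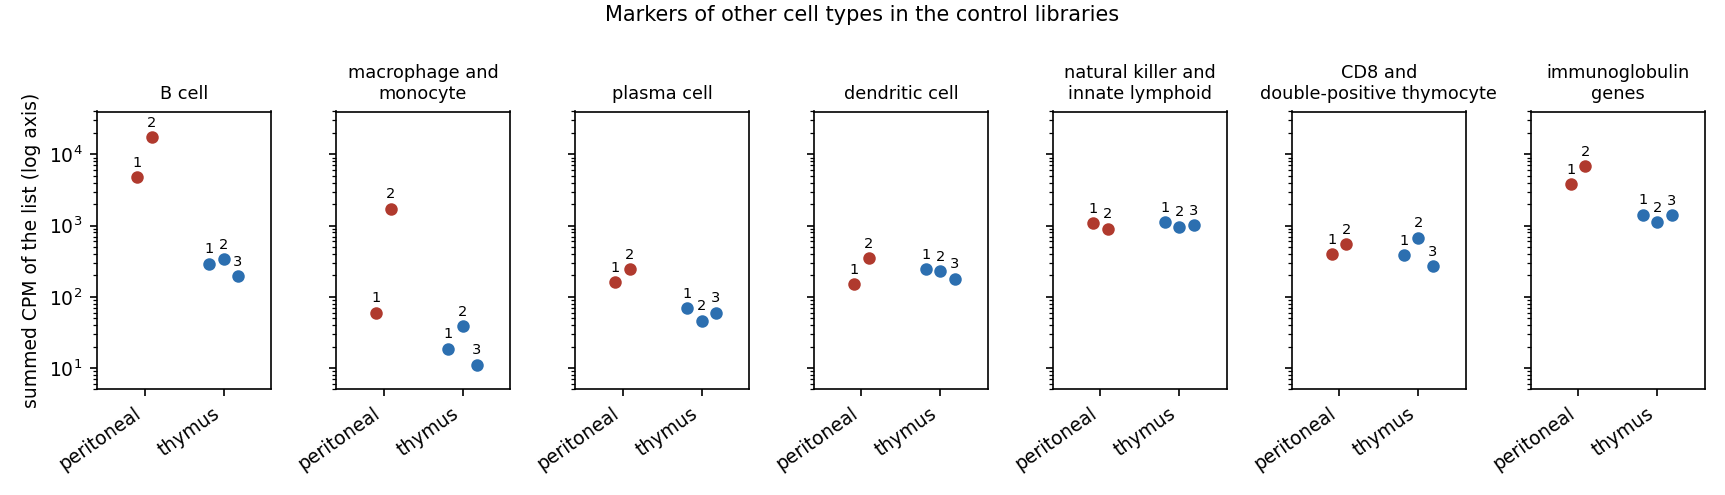
Summed level (CPM, log axis) of the listed markers of other cell types and of all immunoglobulin genes in each control library; each point is 1 library, numbered, with the 2 peritoneal libraries left of the 3 thymus libraries. B cell markers lie at 4791 and 17530 CPM in the peritoneal libraries, above all thymus libraries, and macrophage markers at 59.55 and 1723 CPM.

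Of 18423 genes tested, 455 (2.47%) passed an adjusted p of 0.05 in edgeR's quasi-likelihood test with Benjamini-Hochberg adjustment, 246 higher (1.34%) and 209 lower (1.13%) in peritoneal than in thymus Tregs. All 455 had library values that did not overlap between the groups, as did 5236 (28.4%) of all tested genes. Genes that rose changed more, with a median log2 difference of 2.86 in size against 1.73 for genes that fell, and 99 of the 246 had a thymus mean under 1 CPM. Protein-coding genes made up 192 of the higher and 198 of the lower genes. Among the higher genes were 38 immunoglobulin genes and 13 of the 15 B cell markers. The 2 peritoneal libraries differed in these genes: 105 of the 246 (42.7%) were over 1.5 times higher in peritoneal library 2 than in library 1, against 21.5% of all tested genes and 6.2% of the lower genes. In spleen control Tregs the mean of 217 of the higher genes (88.2%) and 183 of the lower genes (87.6%) lay between the peritoneal and thymus means, as did 41.9% of all tested genes. The median size of the log2 difference was 0.58 over all tested genes, so that called genes leave a wider span to fall into. Whether spleen Tregs stand between the 2 tissues was not tested.

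The number of genes past the threshold rested on single libraries. Without peritoneal library 2 it was 175 and without peritoneal library 1 it was 657. Leaving out thymus library 1, 2 or 3 gave 269, 289 or 237 genes. With each of the 5 libraries left out in turn 133 of the 455 genes passed every time, 79 higher and 54 lower. Where the call of a gene below was lost in such a fit, the library left out is given with the adjusted p of that fit in parentheses. Apart from those a fixed rule names, genes described below without having passed were picked as examples after their values were seen.

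**Figure D2:**
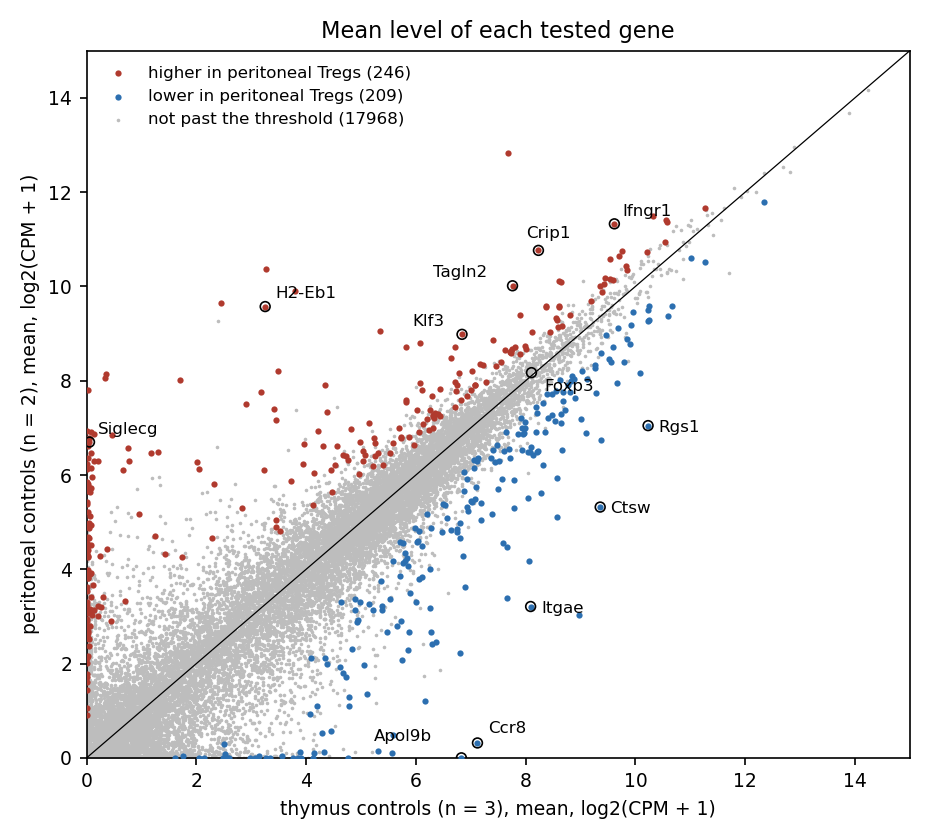
Mean level of each of the 18423 tested genes on a log2(CPM + 1) scale, with the 2 peritoneal controls on the vertical and the 3 thymus controls on the horizontal axis; red and blue points passed the threshold as higher (246) or lower (209) in peritoneal Tregs, and the line marks equal levels. Many higher genes sit at the left edge with almost no counts in thymus Tregs, while Crip1, Tagln2, Klf3 and Ifngr1 were well above 0 in both.

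Many genes that define Tregs were lower in peritoneal Tregs, though not Foxp3 itself. Of 21 tested genes of Treg identity 12 fell and none rose, where 1.13% of all genes fell, and the median log2 difference over the 21 was -0.96, against -0.03 over all tested genes. The 12 included the receptors for interleukin 2, the transcription factors Ikzf2 (Helios) and Ikzf4 (Eos), and the receptors Tnfrsf4 (OX40) and Tnfrsf9 (4-1BB). The count of 12 was 6 without peritoneal library 2 and 7 without thymus library 3. In the dDC libraries all 12 had a difference in the same direction, as did 96.2% of all 209 lower genes and 59.8% of all tested genes. Of the 12, 6 passed the threshold there, as did 72 of the 209.

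Rgs1 (chromosome 1, 144242296 to 144249242 in mm10), a brake on signals from chemoattractant receptors, had 124 and 138 CPM in peritoneal libraries, against 1367, 960.4 and 1274 CPM in thymus libraries. The log2 difference was -3.19 ± 0.25 (SE; 2 against 3 libraries), with an adjusted p of 0.000114, and the spleen controls lay between with 478, 639 and 415 CPM. Itgae, the alpha chain of CD103 that binds E-cadherin on epithelium, had 14.5 and 2.03 CPM in peritoneal libraries, against 296, 301 and 217 CPM in thymus libraries (-5.02 ± 0.63, adjusted p = 0.00139). Both genes were lower in each peritoneal library than in any thymus or spleen control library.

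Il2ra, the high-affinity chain of the interleukin 2 receptor (CD25), had 392 and 550.4 CPM in peritoneal libraries, against 851, 825 and 1076 CPM in thymus libraries (-0.96 ± 0.19, adjusted p = 0.0235). Its call was lost without peritoneal library 1 (0.122) or thymus library 3 (0.0799). The beta chain gene Il2rb had 492 and 390.2 CPM in peritoneal libraries, against 974, 809 and 1098 CPM in thymus libraries (-1.12 ± 0.16, adjusted p = 0.00311). Il2rb lost its call without peritoneal library 2 (0.0563). For both chains the highest peritoneal library lay below the lowest thymus library. Tnfrsf9 had 28.9 and 60.9 CPM in peritoneal libraries, against 237, 250 and 304 CPM in thymus libraries (-2.56 ± 0.35, adjusted p = 0.00217). Tnfrsf4 had 919.8 and 604 CPM in peritoneal libraries, against 1501, 1672 and 1717 CPM in thymus libraries (-1.10 ± 0.16, adjusted p = 0.00302).

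Ikzf2 had 677 and 576 CPM in peritoneal libraries, against 1113, 1197 and 1354 CPM in thymus libraries (-0.96 ± 0.14, adjusted p = 0.00268). Ikzf2 lost its call without peritoneal library 2 (0.0527). Ikzf4 had 187 and 240.2 CPM in peritoneal libraries, against 497, 572 and 798 CPM in thymus libraries (-1.54 ± 0.25, adjusted p = 0.00657). Izumo1r, which encodes folate receptor 4, had 411 and 294 CPM in peritoneal libraries, against 708, 659 and 833 CPM in thymus libraries (-1.06 ± 0.20, adjusted p = 0.0164), but it was highest in the spleen controls, with 1090, 1063 and 1512 CPM, and lost its call without peritoneal library 2 (0.188) or thymus library 3 (0.06). Ctla4, a receptor that strips costimulatory ligands from other cells, had 289 and 235 CPM in peritoneal libraries, against 462, 467 and 486 CPM in thymus libraries (-0.85 ± 0.17, adjusted p = 0.0227). The call of Ctla4 was lost without peritoneal library 2 (0.228), thymus library 1 (0.0575), thymus library 2 (0.057) or thymus library 3 (0.0727). Nrp1 (neuropilin 1, a semaphorin receptor on thymus-derived Tregs) had 718 and 689 CPM in peritoneal libraries, against 1008, 945 and 1041 CPM in thymus libraries (-0.50 ± 0.11, adjusted p = 0.0288) and passed in none of the fits that left out a library (adjusted p between 0.0505 and 0.233). Tnfrsf18 (GITR), Lrrc32 (GARP) and Nt5e (CD73) overlapped between the groups, with adjusted p between 0.731 and 0.931.

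**Figure D3:**
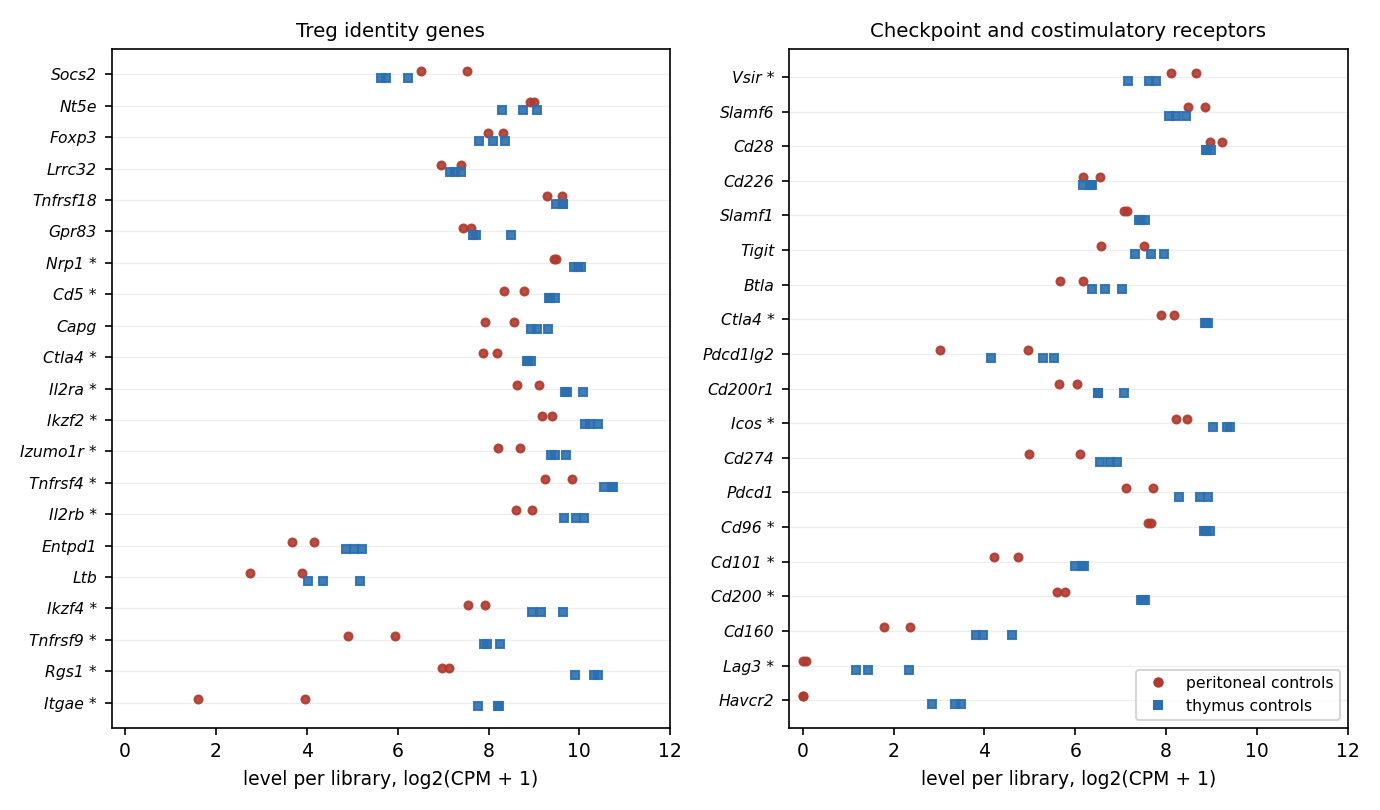
Level of each tested gene of Treg identity (left) and of checkpoint and costimulatory receptors (right) in each control library, log2(CPM + 1); circles are the 2 peritoneal and squares the 3 thymus libraries, genes are ordered by their log2 difference, and * marks an adjusted p under 0.05. Foxp3 overlaps between the groups while 12 of the 21 identity genes, down to Itgae, lie lower in peritoneal Tregs.

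Genes that signals through the T cell receptor induce or tune were lower where they passed. Of 23 tested genes 5 fell (21.7%) and none rose, against 1.13% of all tested genes that fell. The median log2 difference was -1.02. In the dDC libraries 2 fell and 1 rose (median -0.58), where 1.35% of all tested genes passed. All 5 control calls had the same direction in dDC, as did 96.2% of all lower genes, and 1 of them passed there. Egr2, an early transcription factor downstream of calcineurin, had 2.64 and 6.08 CPM in peritoneal libraries, against 58, 70.7 and 103 CPM in thymus libraries (-4.15 ± 0.69, adjusted p = 0.00781). The NF-kappaB subunit gene Rel, which is needed for Treg formation in the thymus, had 64.3 and 114 CPM in peritoneal libraries, against 247, 249 and 289 CPM in thymus libraries (-1.56 ± 0.26, adjusted p = 0.00799). Cd6, a receptor that is linked to the T cell receptor, had 794 and 647 CPM in peritoneal libraries, against 1104, 1300 and 1213 CPM in thymus libraries (-0.74 ± 0.11, adjusted p = 0.00452). Cd6 lost its call without peritoneal library 2 (0.0689). Cd5, whose surface level follows the strength of T cell receptor signals in the thymus, had 440.3 and 324 CPM in peritoneal libraries, against 650.2, 644 and 701 CPM in thymus libraries (-0.80 ± 0.16, adjusted p = 0.0209). Cd5 lost its call without peritoneal library 2 (0.221), thymus library 1 (0.0545) or thymus library 3 (0.0726). Nr4a1 (Nur77) had 23 and 106 CPM in peritoneal libraries, against 178, 315 and 294 CPM in thymus libraries without passing (adjusted p = 0.109), and here the 2 peritoneal libraries lay far apart. Immediate-early and heat shock genes respond to handling of cells as well as to receptors. Of 26 tested genes 1 fell and none rose (3.8% called, against 2.47% of all tested genes), with a median log2 difference of -0.45. At an unadjusted p under 0.05 in edgeR's test there were 7, against 14.1% of all tested genes. The 1 that fell was the RNA-binding protein gene Zfp36l1, with 57.1 and 61.5 CPM in peritoneal libraries, against 172, 166 and 227 CPM in thymus libraries (-1.67 ± 0.21, adjusted p = 0.00134).

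The genes of activated and tissue Tregs split. Of 28 effector Treg genes 2 rose and 9 fell (39.3% called, against 2.47% of all tested genes), with a median log2 difference of -0.84. In the dDC libraries 3 rose and 2 fell (median -0.29), where 1.35% of all tested genes passed. All 11 control calls had the same direction in dDC, against 59.8% of all tested genes, and 3 of them passed there. With thymus library 1, 2 or 3 left out the control count that fell was 4, 5 or 4. That count also dropped without peritoneal library 2. Of 24 tissue Treg genes 2 rose and 4 fell (25% called, median -0.83). Cd83, a membrane protein of activated lymphocytes, had 49.5 and 17 CPM in peritoneal libraries, against 346, 284 and 514 CPM in thymus libraries (-3.52 ± 0.50, adjusted p = 0.00311). Ebi3, a subunit of interleukin 35 and interleukin 27, had 6.7 and 4.05 CPM in peritoneal libraries, against 62.7, 31.2 and 36.6 CPM in thymus libraries (-3.01 ± 0.40, adjusted p = 0.00187). Ebi3 shares exon sequence with Gm16712 on the opposite strand, and reads of the pair cannot be told apart. Batf, a transcription factor of tissue Tregs, had 59 and 40.2 CPM in peritoneal libraries, against 110.1, 95.8 and 146 CPM in thymus libraries (-1.24 ± 0.22, adjusted p = 0.0133). The call of Batf was lost without peritoneal library 2 (0.157). Of the 11 calls in the list 3 held with each library left out. Klrg1, a receptor of terminally activated Tregs, had 83.2 and 70.2 CPM in peritoneal libraries, against 43.1, 41.4 and 61.5 CPM in thymus libraries, higher in both peritoneal libraries but not past the threshold (adjusted p = 0.331), and Cd44, Prdm1, Il10 and Gzmb overlapped between the groups.

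Penk, the precursor of enkephalin peptides and a gene of tissue Tregs, stood at 14.1 and 0.317 CPM in peritoneal libraries, against 503, 377 and 631 CPM in thymus libraries (-6.10 ± 1.16, adjusted p = 0.0183). Both peritoneal libraries were far below every thymus library, though they also differed widely from each other. Il1r2, the decoy receptor for interleukin 1, had 6.46 and 12.5 CPM in peritoneal libraries, against 252, 180.2 and 174 CPM in thymus libraries (-4.42 ± 0.48, adjusted p = 0.000495), and the spleen control mean of 93.4 CPM lay between. Among 29 cytokine receptor genes 1 rose and 5 fell (20.7% called, against 2.47% of all tested genes). The one that rose was Ifngr1, the ligand-binding chain of the interferon gamma receptor, with 3088 and 2053 CPM in peritoneal libraries, against 763, 752 and 838 CPM in thymus libraries (1.71 ± 0.22, adjusted p = 0.00139). Per kilobase Ifngr1 stood at 903 RPKM in peritoneal Tregs and 275 RPKM in thymus Tregs, while the spleen controls stood at 137 RPKM, below both. Tgfbr1, a chain of the receptor for transforming growth factor beta, had 52.4 and 30.3 CPM in peritoneal libraries, against 121, 149 and 166 CPM in thymus libraries (-1.81 ± 0.33, adjusted p = 0.0146). Tgfbr1 lost its call without peritoneal library 2 (0.159).

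Inhibitory and costimulatory receptors were lower where they passed, with 1 exception. Of 19 tested genes 6 fell and 1 rose (36.8% called, against 2.47% of all tested genes), with a median log2 difference of -0.88. Without any 1 thymus library the count that fell was 3, and it also dropped without peritoneal library 2. Cd200, a ligand that quiets myeloid cells, had 47.5 and 54.1 CPM in peritoneal libraries, against 173, 179 and 184 CPM in thymus libraries (-1.82 ± 0.20, adjusted p = 0.000641). Cd96, a receptor for nectins, had 194 and 203 CPM in peritoneal libraries, against 472, 455 and 497 CPM in thymus libraries (-1.26 ± 0.15, adjusted p = 0.000888). These were tight within both groups and passed in each fit that left out a library. Vsir (VISTA) was the exception, with 275 and 400.3 CPM in peritoneal libraries, against 218, 143 and 197 CPM in thymus libraries (0.86 ± 0.19, adjusted p = 0.0376). Vsir lost its call without peritoneal library 2 (0.392), thymus library 2 (0.0933) or thymus library 3 (0.0843). Pdcd1 (PD-1) had 209 and 138 CPM in peritoneal libraries, against 428, 312 and 484 CPM in thymus libraries and missed the threshold (adjusted p = 0.0543), as did Tigit with 182 and 93.3 CPM in peritoneal libraries, against 245, 159 and 201 CPM in thymus libraries (adjusted p = 0.362).

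Receptors that guide cells between tissues went both ways. Of 20 tested chemoattractant receptor genes 2 rose and 2 fell (20% called, against 2.47% of all tested genes). All 4 also passed the threshold in the same direction in the dDC libraries, where 1.35% of all tested genes passed. Ccr8 (chromosome 9, 120092133 to 120094906), a receptor of activated tissue and skin Tregs, had 0.489 and 0 CPM in peritoneal libraries, against 149.8, 150.1 and 115 CPM in thymus libraries (adjusted p = 0.000125), and 0 reads in peritoneal library 2. Ccr6, the receptor for CCL20, had 22.2 and 20.3 CPM in peritoneal libraries, against 249, 151 and 207 CPM in thymus libraries (-3.25 ± 0.34, adjusted p = 0.000441). Both were present in spleen control Tregs, Ccr8 with 74.6, 65.6 and 62 CPM and Ccr6 with 122, 107 and 56.4 CPM, so that the peritoneal libraries were the lowest of the 8 control libraries.

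Gpr183, the receptor for oxysterols that places lymphocytes within lymphoid organs, rose, with 452 and 392 CPM in peritoneal libraries, against 91.5, 109 and 112 CPM in thymus libraries (2.02 ± 0.21, adjusted p = 0.000441). Ccr2, the receptor for CCL2, had 263 and 573 CPM in peritoneal libraries, against 43.8, 69.2 and 52.9 CPM in thymus libraries (2.92 ± 0.45, adjusted p = 0.00512), with library 2 above library 1. Ccr2 lost its call without peritoneal library 2 (0.0587). Ccr2 is also a receptor of monocytes, and macrophage and monocyte markers summed to 59.55 and 1723 CPM in the same 2 libraries. In the peritoneal dDC libraries Ccr2 had 684.9 and 531.2 CPM, where these markers summed to 152.2 and 247.4 CPM. The part of monocytes in the level of Ccr2 was not tested. Per kilobase, the group means ran, in peritoneal Tregs, from S1pr1 (the egress receptor, 295 RPKM) over Ccr7 (224), Gpr183 (143), Cxcr3 (110.4), Ccr2 (65.4) and Cxcr5 (53.9) down to Ccr6 (10.5) and Ccr8 (0.212). In thymus Tregs the same receptors stood at 194 RPKM for S1pr1, 341 for Ccr7, 35.4 for Gpr183, 47.4 for Cxcr3, 8.65 for Ccr2, 21.2 for Cxcr5, 99.8 for Ccr6 and 119.6 for Ccr8. Ccr8 thus ranked above Ccr6 in thymus Tregs and below it in peritoneal Tregs, while Ccr7 (adjusted p = 0.324) and S1pr1 (adjusted p = 0.224) did not pass.

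Integrins changed by chain rather than as a set. Of 25 adhesion genes 3 were higher and 3 lower (24% called, against 2.47% of all tested genes), with a median log2 difference of 0.19. The 2 chains of VLA-4, the integrin that binds VCAM-1 and fibronectin, rose together: Itga4 had 812 and 725 CPM in peritoneal libraries, against 262, 396 and 326 CPM in thymus libraries (1.23 ± 0.18, adjusted p = 0.00317). Itgb1 had 344 and 306 CPM in peritoneal libraries, against 129, 159 and 141 CPM in thymus libraries (1.18 ± 0.15, adjusted p = 0.00152). The 2 chains of LFA-1, which binds ICAM-1, were lower, with 418 and 257 CPM in peritoneal libraries, against 684, 686 and 895 CPM in thymus libraries for Itgal (-1.16 ± 0.21, adjusted p = 0.015) and 740.2 and 796 CPM in peritoneal libraries, against 1236, 974 and 1436 CPM in thymus libraries for Itgb2 (-0.66 ± 0.15, adjusted p = 0.0422). The calls of LFA-1 were weaker, that of Itgal being lost without peritoneal library 2 (0.145) or thymus library 3 (0.0532), and that of Itgb2 being lost without peritoneal library 1 (0.158), peritoneal library 2 (0.202), thymus library 1 (0.113) or thymus library 3 (0.125). Cd9, a tetraspanin that joins integrins in the membrane and also marks B1 cells, had 104 and 101 CPM in peritoneal libraries, against 29, 26.9 and 36.1 CPM in thymus libraries (1.75 ± 0.23, adjusted p = 0.00177), with equal levels in the 2 peritoneal libraries.

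Of 25 genes of naive, homing and egress programs 4 rose and 1 fell (20% called, against 2.47% of all tested genes). The median log2 difference was 0.04. Klf3, a transcriptional repressor of lymphocyte trafficking, had 491 and 520 CPM in peritoneal libraries, against 111, 128 and 102 CPM in thymus libraries (2.15 ± 0.19, adjusted p = 0.000125), and its relative Klf2, which drives S1pr1, had 127 and 204 CPM in peritoneal libraries, against 70.7, 60.8 and 59.6 CPM in thymus libraries (1.38 ± 0.27, adjusted p = 0.0223). Klf2 lost its call without peritoneal library 2 (0.24), thymus library 1 (0.0522), thymus library 2 (0.0709) or thymus library 3 (0.0799). Ly6c1, a surface protein of peripheral T cells, had 205 and 277 CPM in peritoneal libraries, against 19.1, 17.6 and 21.4 CPM in thymus libraries (3.64 ± 0.30, adjusted p = 0.00012), although its reads may be shared with the near-identical Ly6c2. In these 3 genes both peritoneal libraries were above all thymus libraries.

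Some calcium-binding and cytoskeletal genes rose. Of 28 tested genes of the S100, annexin, galectin and related families 5 rose (17.9%) and none fell, against 1.34% of all genes that rose, with a median log2 difference of 0.56. In 13 of the 28 the groups overlapped, while 28.4% of all tested genes did not overlap. Each of the 5 passed in the same direction in the dDC libraries, where 0.765% of all tested genes passed as higher. Crip1 (chromosome 12, 113146316 to 113153879), a small LIM-domain protein, had 1681 and 1796 CPM in peritoneal libraries, against 310.3, 320.4 and 269 CPM in thymus libraries, the smallest p of all genes in this comparison (2.54 ± 0.12, adjusted p = 2.99e-06). Tagln2 (chromosome 1, 172500047 to 172507380), an actin-binding protein of lymphocytes, had 1037 and 1029 CPM in peritoneal libraries, against 224, 197 and 227 CPM in thymus libraries (2.26 ± 0.14, adjusted p = 1.54e-05). In both genes the 2 peritoneal libraries were close to each other and far above every thymus and spleen control library, with spleen controls at 352, 409.9 and 366 CPM for Crip1 and 279.5, 284 and 355 CPM for Tagln2. Ahnak, a giant scaffold protein that regulates calcium entry, had 957 and 1216 CPM in peritoneal libraries, against 444, 345 and 411 CPM in thymus libraries (1.44 ± 0.14, adjusted p = 0.000257). S100a11 had 247 and 234 CPM in peritoneal libraries, against 121, 91.2 and 109 CPM in thymus libraries (1.17 ± 0.15, adjusted p = 0.0018). S100a6 had 183 and 314 CPM in peritoneal libraries, against 81.8, 66.7 and 51.3 CPM in thymus libraries (1.90 ± 0.37, adjusted p = 0.0197). S100a6 lost its call without peritoneal library 2 (0.198), thymus library 2 (0.0619) or thymus library 3 (0.0789). Vim, Anxa5 and Anxa2 overlapped between the groups. Lgals3, a macrophage gene too, had 4.4 and 68.4 CPM in peritoneal libraries, against 8.32, 0.818 and 7.93 CPM in thymus libraries, high in peritoneal library 2 alone.

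Genes of developing thymocytes went mostly one way where they passed. Of 22 tested genes 4 fell and 1 rose (22.7% called, against 2.47% of all tested genes; median log2 difference -0.25). Myb, a transcription factor of progenitors and of some effector Tregs, had 0.147 and 0.0634 CPM in peritoneal libraries, against 42.5, 27.6 and 45 CPM in thymus libraries (adjusted p = 0.00012), and it was present in all spleen controls (13.9, 20.8 and 15.9 CPM). Rag1, the recombinase that assembles T cell receptor genes, had no read in either peritoneal library, against 6.08, 7.69 and 6.72 CPM in the thymus libraries. With a floor of 3 counts per library this is a level at least 40.6-fold lower (adjusted p = 0.0343), and it passed in none of the fits that left out a library (adjusted p between 0.0734 and 0.195). Tox and Bcl11b, nuclear factors of T cell development, had 139 and 142 CPM in peritoneal libraries, against 319, 422 and 366 CPM in thymus libraries (-1.39 ± 0.18, adjusted p = 0.0018) and 126 and 108 CPM in peritoneal libraries, against 254, 247 and 234 CPM in thymus libraries (-1.07 ± 0.13, adjusted p = 0.0011). The gene that rose was Ly6d, with 162 and 200.3 CPM in peritoneal libraries, against 10.3, 6.33 and 2.76 CPM in thymus libraries (4.81 ± 0.62, adjusted p = 0.00153), which is also a B cell gene. Satb1, Lef1, Themis and Cd4 overlapped between the groups.

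Many genes that interferons induce were lower in peritoneal Tregs. Type I interferons act through a complex of transcription factors that includes IRF9 and binds an element in the promoters of many of these genes. Of 30 tested genes 15 fell and none rose, against 1.13% of all genes that fell, and 29 of the 30 had a negative log2 difference, with a median of -1.70. In 27 of the 30 both peritoneal libraries lay below all thymus libraries, against 14.3% of all tested genes. All 15 were negative in the dDC libraries too, and 11 passed there. Of all 209 lower genes 96.2% had the same sign in dDC, and 72 passed there. Without peritoneal library 2 the count that fell was 6, and without any 1 of the other 4 libraries it was 11 or 12. The spleen control mean lay between the others in 13 of the 15 genes that fell, as it did in 87.6% of all lower genes.

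Ifit3 (chromosome 19, 34583531 to 34588731), an antiviral protein that binds other IFIT proteins, had 4.11 and 4.82 CPM in peritoneal libraries, against 99.4, 71.2 and 72.6 CPM in thymus libraries (-4.18 ± 0.41, adjusted p = 0.00027). Isg15, a ubiquitin-like modifier, had 7.09 and 4.88 CPM in peritoneal libraries, against 63.1, 42.4 and 43.5 CPM in thymus libraries (-3.05 ± 0.41, adjusted p = 0.00187). Usp18, the protease that removes it and blocks the interferon receptor, had 61.1 and 59.5 CPM in peritoneal libraries, against 441, 322 and 380.2 CPM in thymus libraries (-2.66 ± 0.35, adjusted p = 0.00177). The transcription factor gene Irf7 had 109 and 75.4 CPM in peritoneal libraries, against 455, 362 and 392 CPM in thymus libraries (-2.13 ± 0.20, adjusted p = 0.000209). Irf7 shares exon sequence with Phrf1 on the opposite strand, whose level was 25.3% of its own over all libraries, and Ifit3 may share reads with its copy Ifit3b. None of these 4 genes overlapped between the groups, and all 4 passed in each fit that left out 1 library. The span of the list was wide: the guanylate-binding protein gene Gbp2 had 182 and 219 CPM in peritoneal libraries, against 169, 112 and 227 CPM in thymus libraries and Ifit2 53.7 and 85.5 CPM in peritoneal libraries, against 64.6, 82.9 and 87.5 CPM in thymus libraries, both overlapping.

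Some genes of this kind outside the list are given as examples. They were picked by their values, Apol9b by its wide gap between the groups, so that their direction does not test the list. Apol9b (chromosome 15, 77729121 to 77736381), an apolipoprotein L gene, had no read in the peritoneal libraries, against 122, 92.4 and 124 CPM in the thymus libraries, at least 669-fold lower (adjusted p = 0.000125). Its copy Apol9a, with which it may share reads, had none either, against 8.54, 15.2 and 16.5 CPM in the thymus libraries, at least 79.7-fold lower (adjusted p = 0.016). Apol9a lost its call without peritoneal library 1 (0.0553) or peritoneal library 2 (0.111). Trim30d had 13.3 and 13.1 CPM in peritoneal libraries, against 87.8, 53 and 62.7 CPM in thymus libraries (-2.36 ± 0.29, adjusted p = 0.00131). Gbp10 had 10.9 and 6.84 CPM in peritoneal libraries, against 75.6, 52.5 and 61.9 CPM in thymus libraries (-2.83 ± 0.38, adjusted p = 0.00192).

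**Figure D4:**
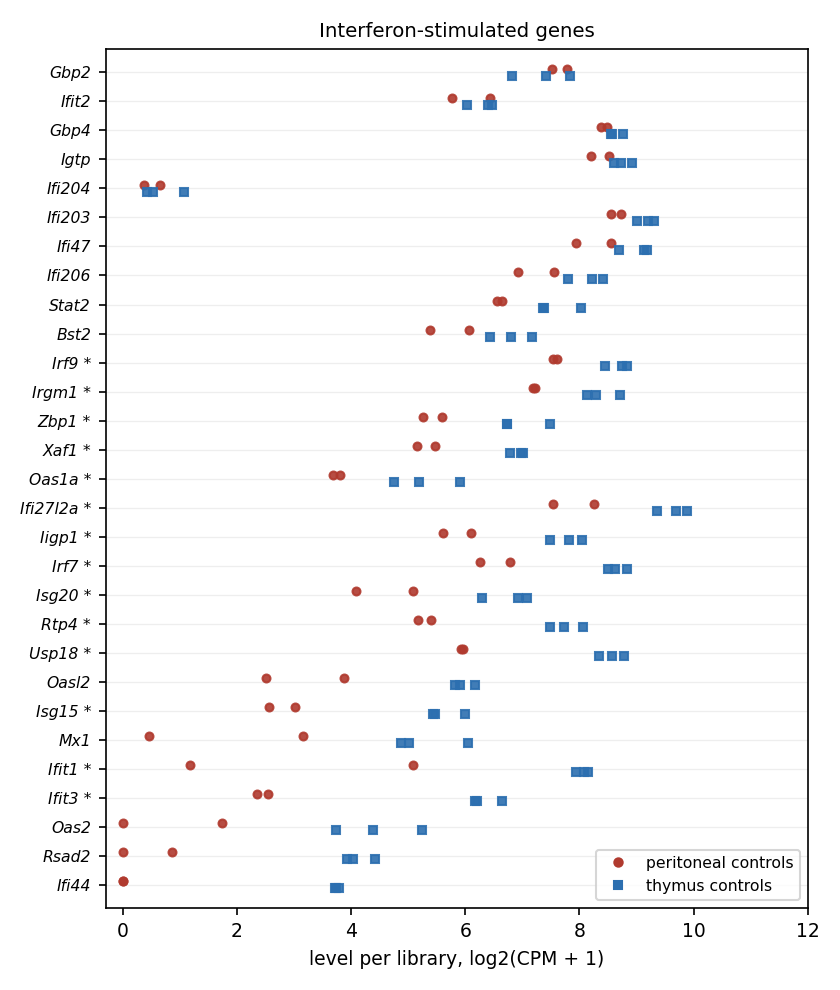
Level of 29 interferon-stimulated genes in each control library, log2(CPM + 1); circles are the 2 peritoneal and squares the 3 thymus libraries, genes are ordered by their log2 difference and * marks an adjusted p under 0.05. In 26 genes both circles lie left of all squares, while 14.3% of all tested genes were lower in peritoneal Tregs without overlap.

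Promoters are shown because these genes moved together and the element that interferon-activated factors bind has a known core. The letters GAAANNGAAA were searched on both strands (TTTCNNTTTC on the other), the 1 motif tried, in RefSeq windows from 250 bases before to 50 bases after each start site (GRCm38.p6). They occurred in 1131 of 32851 windows (3.44%). Of the 30 genes 20 had a window, and 12 of these (60.0%) held a match. Among the genes of the list that fell 5 of 9 with a window held one (55.6%), and among those not past the threshold 7 of 11 (63.6%), so that the share was no higher among the genes that fell. Shown are Ifit3 and Isg15, the members of smallest p among those that fell and held a match, and Apol9b. Matches are in capitals, overlapping ones run together, and a match is a description of letters, not a bound site.
Ifit3 promoter, chr19:34583279-34583578, plus strand: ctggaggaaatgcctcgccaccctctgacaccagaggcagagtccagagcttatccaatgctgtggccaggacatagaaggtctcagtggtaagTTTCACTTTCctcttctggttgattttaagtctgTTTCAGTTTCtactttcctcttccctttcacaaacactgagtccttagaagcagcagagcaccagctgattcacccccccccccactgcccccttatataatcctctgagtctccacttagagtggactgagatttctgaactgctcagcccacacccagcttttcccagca
Isg15 promoter, chr4:156200769-156201068, minus strand: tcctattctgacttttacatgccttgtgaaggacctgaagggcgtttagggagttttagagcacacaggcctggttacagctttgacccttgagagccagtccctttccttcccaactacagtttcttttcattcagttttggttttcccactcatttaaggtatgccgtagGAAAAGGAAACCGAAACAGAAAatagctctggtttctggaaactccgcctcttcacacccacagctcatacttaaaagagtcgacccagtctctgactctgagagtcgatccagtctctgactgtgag
Apol9b promoter, chr15:77728822-77729121, plus strand: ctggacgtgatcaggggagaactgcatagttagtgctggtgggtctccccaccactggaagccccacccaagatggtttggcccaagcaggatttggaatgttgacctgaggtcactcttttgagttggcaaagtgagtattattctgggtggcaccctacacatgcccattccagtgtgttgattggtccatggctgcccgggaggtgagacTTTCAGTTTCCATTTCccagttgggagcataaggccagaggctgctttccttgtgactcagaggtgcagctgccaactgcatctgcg
Isg15 held 3 matches, from 78 bases before the start site on, and Ifit3 and Apol9b held 2 each. Over all genes with a window, a match was present in 19 of 146 that fell, in 14 of 137 when the list was left out (10.2%), in 11 of 153 that rose (7.2%) and in 438 of 10929 tested genes (4.0%).

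None of 32 cell cycle genes passed. Of these, 14 were lower in both peritoneal libraries than in all thymus libraries, against 14.3% of all tested genes. The median log2 difference was -0.80. At an unadjusted p under 0.05 there were 10, against 14.1% of all tested genes. DESeq2 called 9 lower and 0 higher, where it called 748 lower and 655 higher among all 18423 tested genes. In the dDC libraries none of the 32 passed, and their median log2 difference was 0.08. Mki67, the marker of cycling cells, had 25.4 and 35.5 CPM in peritoneal libraries, against 12.5, 33.9 and 38.3 CPM in thymus libraries and overlapped. None of 21 glycolysis and hypoxia genes passed (2 at an unadjusted p under 0.05; DESeq2 called 0 lower and 2 higher). Of 24 genes of cholesterol and fatty acid synthesis 2 rose and 1 fell (12.5% called, against 2.47% of all tested genes). Scd1, a desaturase of fatty acids, had 53.7 and 103 CPM in peritoneal libraries, against 0.328, 0.654 and 1.15 CPM in thymus libraries (6.77 ± 0.83, adjusted p = 0.0013), while its relative Scd2 had 38.5 and 6.4 CPM in peritoneal libraries, against 133, 204 and 241 CPM in thymus libraries (-3.10 ± 0.66, adjusted p = 0.0304). The call of Scd2 was lost without peritoneal library 2 (0.1), thymus library 2 (0.067) or thymus library 3 (0.0821), and Scd1 is also expressed by macrophages and B cells. Of 24 genes of fatty acid oxidation 2 rose and 1 fell, and of 24 death and survival genes 1 rose and 2 fell. In each of these lists 12.5% were called, against 2.47% of all tested genes. None of these 6 calls held in each fit that left out a library. Of 8 GIMAP GTPase genes, which sustain peripheral lymphocytes, Gimap3 had 1213 and 1074 CPM in peritoneal libraries, against 742, 687 and 808 CPM in thymus libraries (0.62 ± 0.12, adjusted p = 0.0209) and Gimap4 had 2939 and 2368 CPM in peritoneal libraries, against 1714, 1353 and 1491 CPM in thymus libraries (0.80 ± 0.17, adjusted p = 0.0273). The call of Gimap3 was lost without peritoneal library 1 (0.101), peritoneal library 2 (0.0634), thymus library 1 (0.0629) or thymus library 2 (0.068), and that of Gimap4 was lost without peritoneal library 1 (0.138), peritoneal library 2 (0.0591), thymus library 2 (0.0877) or thymus library 3 (0.0843).

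Of 19 tumour necrosis factor receptor genes 2 rose and 3 fell (26.3% called, against 2.47% of all tested genes), the ones that rose being the gene Tnfrsf13c, the receptor of B cells for BAFF, with 14.9 and 34.1 CPM in peritoneal libraries, against 0.0547, 0.0545 and 0 CPM in thymus libraries, and Tnfrsf26, with 443 and 360.4 CPM in peritoneal libraries, against 141, 188 and 263 CPM in thymus libraries. Tnfrsf26 lost its call without peritoneal library 1 (0.143), peritoneal library 2 (0.0997), thymus library 1 (0.0832) or thymus library 2 (0.105). Of 20 suppressive molecules 4 fell (20%, against 1.13% of all tested genes), namely Ebi3, Ctla4, Lag3 and Fgl2. Fgl2, a secreted fibrinogen-like protein, lost its call without peritoneal library 2 (0.228), thymus library 1 (0.115) or thymus library 3 (0.0919), and Lag3, a receptor for class II molecules, passed in none of the fits that left out a library (adjusted p between 0.0575 and 0.271). Among 17 helper T cell genes Ccr6 alone passed (5.9%), and among 19 cytotoxic genes Ctsw alone (5.3%), against 2.47% of all tested genes. Ctsw, a cysteine protease of killer cells, had 21.2 and 56.7 CPM in peritoneal libraries, against 592, 608 and 767 CPM in thymus libraries (-4.08 ± 0.50, adjusted p = 0.00126), with a wide gap between the groups.

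The genes with the widest gap above the thymus libraries were for the most part known genes of B cells and myeloid cells. The 15, with markers and immunoglobulin genes left out by rule, were Siglecg, Pld4, Syk, Fgd2, Ly86, Mpzl2, Ctsh, Fcgr2b, Srpk3, Scd1, H2-Eb1, Haao, March1, Plac8 and H2-DMb2. Siglecg, an inhibitory receptor of B1 cells, had 66.1 and 139.7 CPM in peritoneal libraries, against 0, 0.109 and 0 CPM in thymus libraries, a ratio of 2650 (95% interval 734 to 21900), where the interval covers counting error only. Syk, the kinase that B cell receptors and Fc receptors use, had 66.5 and 165 CPM in peritoneal libraries, against 0, 0.109 and 0.172 CPM in thymus libraries (adjusted p = 0.00138). H2-Eb1, a chain of major histocompatibility complex class II, had 299.6 and 1222 CPM in peritoneal libraries, against 9.2, 11.1 and 5.29 CPM in thymus libraries (6.47 ± 0.72, adjusted p = 0.000641), with peritoneal library 2 far above library 1. Fcgr2b, the inhibitory Fc receptor, had 26.4 and 45.6 CPM in peritoneal libraries, against 0, 0 and 0.0575 CPM in thymus libraries (adjusted p = 0.00894) and lost its call without thymus library 3 (0.0514). Haao lost its call without peritoneal library 2 (0.0634), thymus library 1 (0.0579), thymus library 2 (0.0617) or thymus library 3 (0.0693). Mpzl2, an adhesion molecule of the immunoglobulin superfamily, was higher in peritoneal library 1 than in library 2, with 70.3 and 43.8 CPM, against no read in the thymus libraries, at least 342-fold higher. Most of these genes were higher in peritoneal library 2 than in library 1, as the B cell and macrophage marker sums were, but to differing extents. Srpk3 had 27.4 and 32.3 CPM in peritoneal libraries 1 and 2, while March1, with 27.6 and 21.7 CPM, and Mpzl2 were lower in library 2. The part of other cells in these differences was not tested.

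Genes that rose without standing out in peritoneal library 2 were looked at by a further rule, set after these values were seen: called higher, at least 10 CPM in thymus Tregs and no more than 1.2 times higher in peritoneal library 2 than in library 1. It sets no limit on genes higher in library 1, such as Ptafr, with 158.7 and 84.57 CPM in peritoneal libraries 1 and 2. The rule took 88 genes. With marker, immunoglobulin, T cell receptor and predicted genes left out, the 15 with the widest gap were Crip1, Tagln2, Klf3, Usp28, Gpr183, Ptafr, Adk, Rnf125, Cd9, Cpm, Lyst, Ifngr1, Fam49a, B3gnt5 and Cdc25b. Of these B3gnt5 lost its call without peritoneal library 2 (0.076), Cdc25b without peritoneal library 1 (0.083), peritoneal library 2 (0.0996), thymus library 1 (0.0825) or thymus library 3 (0.0982) and Lyst without peritoneal library 1 (0.0613), peritoneal library 2 (0.163), thymus library 1 (0.0838) or thymus library 3 (0.0983). Ptafr and Cpm passed in none of the fits that left out a library (adjusted p between 0.065 and 0.143 for Ptafr, adjusted p between 0.0722 and 0.203 for Cpm). Adk, adenosine kinase, which removes the adenosine that CD73 forms, had 373 and 345 CPM in peritoneal libraries, against 115, 101 and 81 CPM in thymus libraries (1.86 ± 0.19, adjusted p = 0.000321). Rnf125, a ubiquitin ligase of T cells, had 114 and 78.9 CPM in peritoneal libraries, against 26.8, 20.6 and 20.6 CPM in thymus libraries (2.09 ± 0.26, adjusted p = 0.00139). Usp28, a deubiquitinase, had 118 and 132 CPM in peritoneal libraries, against 31.5, 26.9 and 23.3 CPM in thymus libraries (2.20 ± 0.28, adjusted p = 0.00152). In each of these 3 the peritoneal libraries lay well above every thymus library, which the choice by widest gap brings about. All 3 passed with each library left out. In the dDC libraries Adk (adjusted p = 0.000544) and Rnf125 (0.0116) passed too, and Usp28 did not (0.521).

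Among the 15 genes with the widest gap below the thymus libraries, Apol9b, Ccr8, Penk, Myb, Itgae, Il1r2 and Ifit3 have been described. The others were Adgrg1, Slc22a2, Rgs16, Ptpn5, Lad1, Krt83, Rims3 and Baiap3. Rgs16, a further brake on chemoattractant signals, had 1.08 and 1.52 CPM in peritoneal libraries, against 68.8, 45.1 and 99 CPM in thymus libraries (-5.77 ± 0.73, adjusted p = 0.00147). Lad1, an anchoring filament protein of epithelium, had 4.55 and 2.79 CPM in peritoneal libraries, against 83.6, 141 and 107 CPM in thymus libraries (-4.90 ± 0.74, adjusted p = 0.0042) and lost its call without peritoneal library 2 (0.0669). Slc22a2, an organic cation transporter, had no read in peritoneal Tregs, against 23, 35.8 and 19.5 CPM in thymus Tregs, at least 155-fold lower. Adgrg1, an adhesion receptor, had 0.0978 and 0.0634 CPM in peritoneal libraries, against 31.4, 56.4 and 51.2 CPM in thymus libraries (adjusted p = 0.00711). Adgrg1 lost its call without peritoneal library 2 (0.0997). Baiap3 lost its call without peritoneal library 1 (0.0557), peritoneal library 2 (0.223), thymus library 1 (0.0558), thymus library 2 (0.0515) or thymus library 3 (0.0614), and its exons overlap those of Tsr3 on the opposite strand. Rims3 passed in none of the fits that left out a library (adjusted p between 0.0517 and 0.201).

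Further genes that fell, named after their values were seen, were high enough to be read in every library. Abcg1, a cholesterol exporter, had 326 and 245 CPM in peritoneal libraries, against 1186, 946 and 1107 CPM in thymus libraries (-1.92 ± 0.19, adjusted p = 0.000337). Igf2r, the mannose 6-phosphate receptor that also binds insulin-like growth factor 2, had 124 and 110.2 CPM in peritoneal libraries, against 436, 645 and 572 CPM in thymus libraries (-2.23 ± 0.24, adjusted p = 0.000441). Skil, an inhibitor of SMAD proteins, had 77.5 and 135 CPM in peritoneal libraries, against 558, 629 and 794 CPM in thymus libraries (-2.63 ± 0.30, adjusted p = 0.000785). Cd52, a small surface glycoprotein, had 717 and 614 CPM in peritoneal libraries, against 1543, 1559 and 1533 CPM in thymus libraries (-1.22 ± 0.13, adjusted p = 0.00046). None of these 4 overlapped between the groups, and each passed with any 1 library left out. Cish, a feedback inhibitor that STAT5 induces, had 105 and 71.8 CPM in peritoneal libraries, against 340.2, 228 and 314 CPM in thymus libraries (-1.73 ± 0.24, adjusted p = 0.00217). Lta, which encodes lymphotoxin alpha, had 30.0 and 40.0 CPM in peritoneal libraries, against 185, 122 and 189.9 CPM in thymus libraries (-2.24 ± 0.28, adjusted p = 0.00138).

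The dDC libraries gave a further measure of the same tissue contrast with no library in common. There 249 genes (1.35%) passed, 141 higher (0.765%) and 108 lower (0.586%). Both contrasts called 177 genes, 38.9% of the control calls and 71.1% of the dDC calls, and none of these had opposite signs. Of the genes called in controls 239 of 246 higher (97.2%) and 201 of 209 lower (96.2%) had the same sign in dDC, against 59.8% of all tested genes. Crip1 had 2138 and 2808 CPM in peritoneal dDC libraries, against 372 and 391 CPM in thymus dDC libraries (2.70, adjusted p = 8.27e-06). Ccr8 had 3.09 and 9.55 CPM in peritoneal dDC libraries, against 117 and 121 CPM in thymus dDC libraries (-4.24, adjusted p = 0.00398). Ifit3 had 5.82 and 6.67 CPM in peritoneal dDC libraries, against 80.7 and 176 CPM in thymus dDC libraries (-4.36, adjusted p = 0.000429).

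Some genes that fell in controls had no such difference in dDC. Tnfrsf4 had 1603 and 1656 CPM in peritoneal dDC libraries, against 1793 and 1638 CPM in thymus dDC libraries (-0.07, adjusted p = 0.936). For Ctla4 the dDC difference was -0.09 (adjusted p = 0.93) and for Cd5 -0.20 (adjusted p = 0.712). The difference between the contrasts was tested itself and called 0 genes in edgeR's quasi-likelihood test and 0 in limma-voom, with 1053 (5.72%) at an unadjusted p under 0.05, while DESeq2 called 112. Without peritoneal control library 1 edgeR called 72 genes, and without thymus dDC library 2 it called 17. A difference between genotypes was therefore not established for any gene named here.

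**Figure D5:**
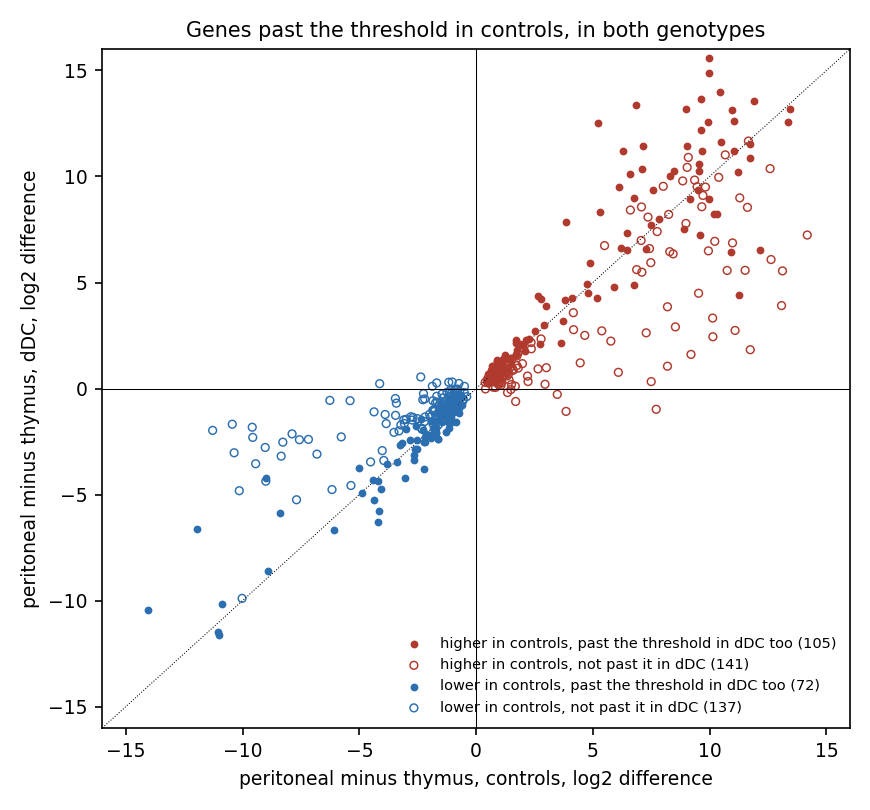
Log2 difference of peritoneal minus thymus Tregs for the 455 genes past the threshold in controls, in dDC mice (vertical) and in controls (horizontal), 2 against 2 and 2 against 3 libraries; filled points also passed in dDC (105 higher, 72 lower), open points did not, and the dotted line marks equal differences. The points lie in the upper right and lower left corners apart from 7 higher and 8 lower genes.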

How the data were processed

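Per the labels' protocols, cells of adult mice were sorted as Foxp3-positive, RNA came from an RNeasy Micro kit, and cDNA was made by SmartScribe template switching (12 cycles), sheared, and turned into NEBnext Ultra DNA libraries (15 cycles). Such libraries do not mark the strand. No molecular identifiers are named, so floors and intervals cover counting error. The submitters' processing notes name bcl2fastq 2.19.1, GSNAP and featureCounts 1.6.0 with build mm10, and the strand setting is not stated in them. Raw counts per gene were deposited by the authors in 1 table. Of its 45798 features 92 spike-in sequences (up to 6 reads a library) were dropped, and a table of Ensembl gene names gave symbols for 98.8% of genes.

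Counts were analysed in edgeR 4.0.16 (R 4.3.3). The filter filterByExpr left 18423 genes with 99.93% of the counts, and TMM factors lay between 0.9601 and 1.049. A robust quasi-likelihood model with a mean for each of 6 groups of tissue and genotype was fitted to all 15 libraries (9 residual degrees of freedom), with two-sided tests and Benjamini-Hochberg adjustment over all tested genes at 0.05. Log2 differences are peritoneal minus thymus with their SE. CPM use TMM-scaled library sizes, and RPKM divide group means by exon length. Groups came from the labels, which name no batch.

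The comparison, the 23 gene lists (467 genes) and the 12 marker lists were chosen with earlier results of these data known. A rule named the 15 genes in each direction with the widest gap between the groups (at least 10 CPM in the higher group; marker, immunoglobulin, T cell receptor and predicted genes left out). It also named up to 4 called members of each list in each direction by smallest p, or 2 as values where fewer than 2 passed. Not every gene so named is reported here. A short set, such as Foxp3, Cd4 and Klrg1, was always named. Genes named otherwise, among them Ikzf4, Izumo1r and Isg15, were chosen after their values were seen. Alternatives were median-of-ratios factors, no filter, a filter of 5 CPM, DESeq2, limma-voom (limma 3.58.1), fits to the 8 control or the 5 compared libraries, TMM without immunoglobulin and marker genes, a tested fold of 1.5 and leaving out each library. The test was checked on simulated counts, with changes set in the peritoneal controls for genes with a mean of at least 5 CPM. It recovered 12 of 100 genes changed 2-fold and 43 of 100 changed 4-fold. Of 56 genes called there 1 was unchanged. A gene not past the threshold may therefore still differ between the tissues.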

Additional observations from a re-analysis of the deposited data

Results flagged for a closer look

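Spike-in sequences, which no comparison used, received 5 reads in thymus library 2 and 4 reads in thymus library 3 of the controls, above the limit that a count of 0 allows, and at most 6 reads in any library of the series.

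Cdk1, the kinase that drives entry into mitosis, and Cd2, an adhesion receptor of T cells, had library values that did not overlap between peritoneal and thymus Tregs in either genotype and went opposite ways. The log2 difference of Cdk1 in dDC minus that in controls was 9.69, with 0 reads in peritoneal control library 1 and 1 in library 2, so that its size depends on the fit near 0. That of Cd2 was 0.60. Neither passed the threshold in edgeR's test of the difference between the contrasts, which called 0 genes (1053 at an unadjusted p under 0.05; 0 in limma-voom, 112 in DESeq2).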

How the results depend on the processing

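No paired analysis was possible because the labels give the libraries of the compared groups no shared replicate numbers. The 455 calls in controls (246 higher, 209 lower) became 1403 in DESeq2 (655 higher, 748 lower), 257 in the 8 control libraries (136, 121), 73 in the 5 compared libraries (41, 32) and 194 against a tested fold of 1.5 (113, 81). They stayed within 1.5 times with median-of-ratios factors (468), no filter (508), a filter of 5 CPM (610), limma-voom (512) and TMM without immunoglobulin and marker genes (464). With 1 library left out they ranged between 175 and 657 (97 to 252 higher, 78 to 405 lower), and without peritoneal library 1 the share called higher was 38.4% and the median of all genes -0.16. The higher share was 46.7% in DESeq2. A lone peritoneal library is assumed there to vary like the other groups. Under all 14 alternatives 57 genes kept their call (36 higher, 21 lower). In dDC the 249 calls became 992 in DESeq2 (571, 421) and 86 to 319 with 1 library left out (38 to 205 higher, 38 to 114 lower). The difference between the contrasts gave 0 calls, 112 in DESeq2 (87, 25) and 0 to 72 with 1 library left out (0 to 70 higher, 0 to 2 lower). Of the genes not called, Foxp3 (0.07) ranged between -0.11 and 0.22 with 1 library left out, Bcl2 (0.12) between -0.034 and 0.42, and Cd4 (0.31) between -0.20 and 0.69. The calls of Adgrg1, Baiap3, Fgl2, H2-Eb1, Itgb2, Lag3 and Plac8 were also lost in limma-voom. The fit to the 5 compared libraries lost some calls that held with each library left out. Among them were Itgae, Tnfrsf9, Tnfrsf4, Cd83, Ebi3, Isg15, Itgb1, Itga4, Tox, Bcl11b, Cd9, S100a11, Rel and Rnf125. Causes of these shifts were not tested. Genes below 5 CPM, with a median coefficient of variation of 1.29, limit what 2 against 3 libraries can show.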
